A study of Mus musculus with 12 samples.

Results

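Livers collected around lights off were compared with livers collected around lights on, at the level of polyadenylated RNA. The dusk side holds 4 livers, 2 each at Zeitgeber time (ZT) 10 and ZT14, and the dawn side holds 4 livers, 2 each at ZT22 and ZT2. They are 8 of the 12 RNA-Seq samples of the series, which also has 2 livers each at ZT6 and ZT18. Of the 20069 genes in the table, 10198 were taken as expressed, with a signal above 2 in at least 1 of the 12 samples. The gene just inside this limit reached 2.01 and the gene just outside it 2. The signal is the mean coverage of a gene's exons in reads per base pair (rpbp), on the scale of the deposited table. All mice were wild-type C57BL/6 males, aged 3 to 6 months and entrained to 12 hr of light and 12 hr of darkness with lights off at ZT12. Both sides had this genotype and lighting, and no further treatment is given for either. Each sample is the liver of a mouse killed at that time, so samples of different times are different animals. With 2 livers per time point, the spread within a side includes the difference between its time points. In whole liver, fewer cells of a type and less RNA per cell cannot be told apart.

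At the core of the clock, PER and CRY proteins accumulate and shut down their own transcription, which E-boxes in the *Per* and *Cry* promoters confer. The E-box is bound by BMAL1 (gene *Arntl*) together with a partner, the product of *Clock* or *Npas2*. The nuclear receptors REV-ERB (*Nr1d1*, *Nr1d2*) and ROR (such as *Rora*) act in opposite directions on *Arntl* through ROR elements. The PAR bZIP factors DBP, TEF and HLF and their antagonist E4BP4 (*Nfil3*) act on D-boxes of output genes. In liver, these loops and the nightly meal of the mouse are known to time the metabolism of lipids, glucose, bile acids and foreign compounds.

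Acute-phase genes, which hepatocytes are known to transcribe strongly in inflammation, set 3 of the 4 dawn livers apart from all dusk livers. The signal of *Saa1*, a serum amyloid A gene, was 22.9 and 32.3 at ZT10 and 58.2 and 50 at ZT14, against 28.8 and 1312 at ZT22 and 3578 and 3229 at ZT2. Thus the 2 ZT2 livers and ZT22 replicate 2 were far above the other livers, and ZT22 replicate 1 was within the dusk range. *Lcn2* (lipocalin 2) had 1.32 and 5.9 at ZT10 and 9.41 and 2.23 at ZT14, against 2.25 and 61.1 at ZT22 and 135 and 108 at ZT2. *Hp* (haptoglobin) had 916 and 1019 at ZT10 and 1357 and 1102 at ZT14, against 1183 and 3132 at ZT22 and 4816 and 4334 at ZT2. The same 3 livers stood out in both genes. Of 22 expressed genes of an acute-phase list drawn up after the data were seen, 20 had both ZT2 livers above all dusk livers and 19 had ZT22 replicate 2 above them. The same was seen for 3 of the genes in ZT22 replicate 1. Over all expressed genes these shares were 23%, 24.4% and 23.4%. *Alb* (albumin), known to fall in inflammation, was at 27948 and 24395 at ZT10 and 26606 and 30631 at ZT14, against 24746 and 23294 at ZT22 and 12611 and 13281 at ZT2. Of the other genes listed as lowered in inflammation, *Ttr*, *Rbp4* and *Serpina6* had both ZT2 livers below all dusk livers. *Apoa1* had them above. The part of these acute-phase differences in the results below was not tested. The genes called are therefore also given as held or not held without ZT2, and the counts with ZT22 replicate 1 alone as the dawn side.

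**Figure D1:**
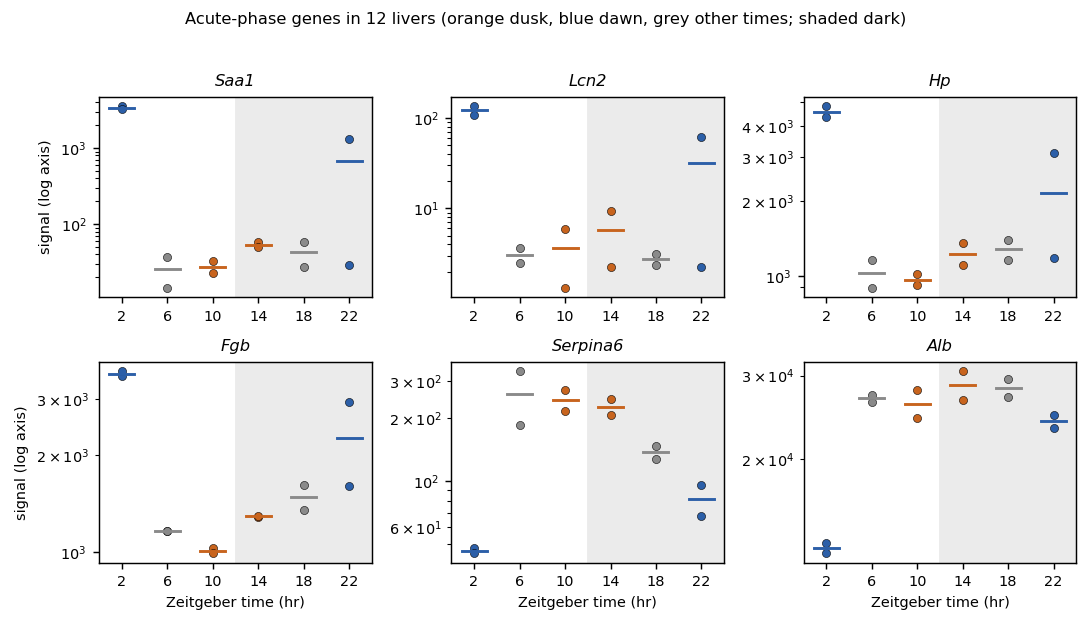
Signal (reads per base pair, log axis) of 5 genes known to respond in inflammation and of *Alb*, against Zeitgeber time in hr, in the 12 livers. Points are single livers, bars are means of 2 and shading marks the dark phase. Both ZT2 livers and one ZT22 liver are far above the others in *Saa1*, *Lcn2*, *Hp* and *Fgb*, while the other ZT22 liver is near the dusk livers.

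The ZT2 samples were also the least like the others. Their correlation with samples of other times over log2 values was 0.92 to 0.971, highest with ZT22 replicate 2. Among the 10 other samples, different times correlated at 0.944 to 0.981, and livers of the same time at 0.975 to 0.987 in all 12. The 6 hepatocyte markers, mostly *Alb*, summed to 31321 to 39897 at dusk, 33639 and 33939 at ZT22, and 23963 and 24805 at ZT2. Both ZT2 livers were below all dusk livers in *Alb*, *Ttr* and *Hnf4a*, and above them in *Apoa1*, *Serpina1a* and *Fgb*. No lymphocyte or pancreas acinar marker passed the minimum of 2 in the 8 samples. The summed signal of 10 Kupffer cell (liver macrophage) markers was 117 to 168 at dusk, 136 and 175 at ZT22, and 220.3 and 226 at ZT2. All 9 expressed markers had a higher mean log2 value at dawn and none was called by limma. The 5 neutrophil markers summed to 1 to 4.02 at dusk and 1.6 to 5.84 at dawn. *Mpo* was at or near 0 in all 8 samples. *S100a8* had 0.26 to 1.29 at dusk, 0.8 and 1.14 at ZT22, and 1.48 and 2.58 at ZT2. *S100a9* had 0.3 to 2.24 at dusk, 0.5 and 3.73 at ZT22, and 2.45 and 2.67 at ZT2. *Csf3r* overlapped between dusk and dawn. *Prtn3*, a protease of neutrophil granules that was not on the list, was called and had 0 and 0.09 at ZT10 and 0.13 and 0 at ZT14, against 0.23 and 4.58 at ZT22 and 2.39 and 1.93 at ZT2. The 5 cholangiocyte (bile duct cell) markers summed to 17 to 36.5 and 24.9 to 57.5, with *Krt7* and *Krt19* below the minimum in every sample. The part of these cells in the results was not tested. Of the other marker genes, *Fgb* (−1.29 on the log2 scale, adjusted p = 0.0235 by limma) and *Sox9* (−1.37, adjusted p = 0.0194) were called, both higher at dawn. *Prtn3*, *Fgb* and *Sox9* did not hold without ZT2.

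The dusk and dawn livers differed in 633 of the 10198 expressed genes (6.21%), at an adjusted p below 0.05 in limma, a linear model fitted across all genes that shares information on their spread. Such genes are named as called. Of these, 351 were higher at dusk (3.44%) and 282 were higher at dawn (2.77%). At an unadjusted p below 0.05 there were 2451. The median difference of the genes called was 0.72 in the first group and −0.66 in the second, on the scale of log2(signal + 0.25), dusk minus dawn, and −0.028 over all expressed genes. This scale understates the change of genes with a low signal. At least a 2-fold difference was found in 97 genes higher at dusk and 72 higher at dawn, and at least a 4-fold difference in 21 and 9. The 4 dusk and 4 dawn values did not overlap in 346 and 276 of the genes called, against 15.1% of all expressed genes. The count moved with single livers. It was 189 and 216 without either ZT2 liver, 230 without ZT10 replicate 1, 352 without ZT10 replicate 2, 255 without ZT22 replicate 2, 410 and 422 without either ZT14 liver, and 1060 without ZT22 replicate 1. The largest called differences on this scale were those of *Acot3*, *Dbp*, *Usp2* and *Rgs16* at dusk, and of the Mup gene OTTMUSG00000007485, *Elovl3* and *Npas2* at dawn.

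**Figure D2:**
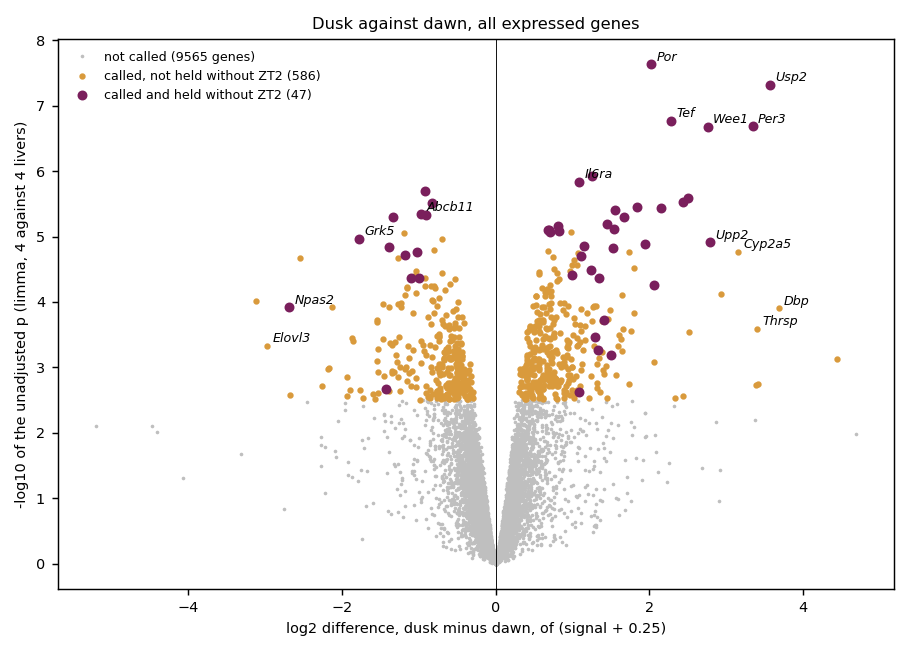
Difference of log2(signal + 0.25), dusk minus dawn, against the −log10 of the unadjusted p from limma (4 against 4 livers) for the 10198 expressed genes. Each point is 1 gene. The 47 genes that were also called without ZT2 are large and dark, and they lie mostly to the right, toward higher values at dusk.

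Without the ZT2 livers, 51 genes were called (0.5%), and 47 of the 633 differences held, 34 higher at dusk and 13 higher at dawn. The fit then had 6 livers in place of 8. All 633 genes kept their direction against ZT22, with a median of 88.7% of the full log2 difference (range 52.1% to 141%), although the ZT22 livers had taken part in calling them. All 633 also had an unadjusted p below 0.05 without ZT2. The difference to ZT22 was smaller than the difference to ZT2 in 467 of them. In the fit of time-point means over 12 livers, which takes the spread within time points only, 457 of 1869 genes called held, 45 of them among the 47. With 1 liver also left out of both fits, 44 genes held without either ZT2 liver (43 and 44 of the 47) and 43 without ZT10 replicate 2 (32 of the 47). Without ZT10 replicate 1 or either ZT14 liver 9 to 13 held. With 1 of the ZT22 livers left out, the fit without ZT2 has a single dawn liver, so the number held is not comparable. Against ZT22 replicate 1 alone, all 633 genes kept their direction, with a median of 82.9% of the full log2 difference. Both ZT22 livers lay outside the range of the dusk livers, on the called side, in 625 genes, against 24.5% of all expressed genes in either direction.

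Removing another time point, with the same number of livers left, gave other counts. Without ZT22, 1062 genes were called (10.4%) and 465 of the 633 held. Without ZT10, 93 were called and 80 of the 633 held. Without ZT14, 475 were called and 310 held. Thus the number called without ZT2 was below that without ZT10, ZT14 or ZT22. The genes that held without each of the 4 time points in turn numbered 30, 23 higher at dusk and 7 higher at dawn. With ZT22 replicate 1 alone as the dawn side, no gene was called in the limma fit of 5 livers, and 786 had an unadjusted p below 0.05. A fit of time-point means over 9 livers, in which this lone liver is assumed to vary like the others, called 45 (0.441%). Of these, 33 were also called with all 8 livers in the same direction, 14 of them among the 47. The 33 include *Usp2*, *Per2*, *Per3*, *Tef*, *Wee1*, *Upp2*, *Por*, *Dbp*, *Nr1i3*, *Il6ra*, *Ppard* and *Hsd3b7*.

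Of the 25 genes of a clock list, 24 were expressed. Of these, 14 were called higher at dusk and 3 higher at dawn, against 3.44% and 2.77% of all expressed genes. The median difference of the 24 genes was 1.61 on the log2 scale, against −0.028 for all expressed genes. Of those called, 8 held without ZT2, against 47 of all 10198 expressed genes. The list's outputs *Por*, *Upp2*, *Inmt*, *Usp2*, *Ccrn4l* and *Alas1* are genes that the study names as rhythmic in these same data. Their calls are therefore not independent of how the list was chosen. The positive arm of the loop was high at dawn. *Arntl* (chromosome 7, 120350979 to 120457636, mm9) had a signal of 0.71 and 1.11 at ZT10 and 1.94 and 3.22 at ZT14, against 6.45 and 6.92 at ZT22 and 5.9 and 5.55 at ZT2. Its log2 difference was −1.86 ± 0.34 (SE, n = 4 livers per side), with an adjusted p of 0.0186 in limma. Without ZT2 the difference was as large (−1.97), with an adjusted p of 0.142. *Clock* was at 4.35 and 4.35 at ZT10 and 6.75 and 6.84 at ZT14, against 9.55 and 9.24 at ZT22 and 8.77 and 9.96 at ZT2, so that ZT14 was between ZT10 and the dawn livers. Its difference was −0.76 ± 0.16 (adjusted p = 0.0294 by limma, 0.198 without ZT2). *Npas2*, a paralog of *Clock*, was listed at 0 in 3 of the 4 dusk livers and at 0.03 in the other, against 2.56 and 1.59 at ZT22 and 1.09 and 0.82 at ZT2. This difference held without ZT2 (adjusted p = 0.0394 by limma), and a fold is not given because the dusk signal is at or near 0.

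The *Period* genes were high at dusk. *Per1* had 2.97 and 3.44 at ZT10 and 2.61 and 2.15 at ZT14, against 0.46 and 0.36 at ZT22 and 0.17 and 0.18 at ZT2. *Per2* had 6.84 and 6.34 at ZT10 and 8.99 and 10 at ZT14, against 1.78 and 1.72 at ZT22 and 0.81 and 0.97 at ZT2. *Per3* (chromosome 4, 150377761 to 150418774, mm9) had 5.46 and 4.12 at ZT10 and 3.76 and 3.45 at ZT14, against 0.27 and 0.32 at ZT22 and 0.07 and 0.12 at ZT2. No dawn liver reached the lowest dusk liver in any of the 3 genes. On the log2 scale the differences were 2.51 ± 0.24, 2.44 ± 0.24 and 3.34 ± 0.24 (SE), and all held without ZT2, with adjusted p of 0.0199, 0.0199 and 0.00979 in limma. Of the cryptochromes, *Cry2* was higher at dusk (7.75 and 7.52 at ZT10 and 8.32 and 7.1 at ZT14, against 4.7 and 4.96 at ZT22 and 4.39 and 3.72 at ZT2), by 0.76 ± 0.10 (adjusted p = 0.00649 by limma). It did not hold without ZT2 (adjusted p = 0.0563). *Cry1* was not called (log2 difference 0.59, adjusted p = 0.505 by limma). It was at 4.91 and 3.82 at ZT10 and 8.81 and 9.79 at ZT14, against 9.44 and 6.54 at ZT22 and 1.97 and 2.3 at ZT2, so that both sides held a low and a high time point. ZT14 was above ZT10 by 9.3 against 4.37 on average (adjusted p = 0.0291 by limma over time-point means). *Gm129* (chromosome 3, 95682426 to 95686174, mm9), which encodes the repressor CHRONO, had 4.4 and 3.67 at ZT10 and 1.7 and 1.63 at ZT14, against 0.11 and 0.47 at ZT22 and 0.06 and 0 at ZT2, a difference of 2.92 ± 0.43 with an adjusted p of 0.00914 (0.0945 without ZT2).

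The nuclear receptors of the second loop were split. *Nr1d2* was higher at dusk, with 19.7 and 20.8 at ZT10 and 9.13 and 11.4 at ZT14, against 3.36 and 4.79 at ZT22 and 6.51 and 8.32 at ZT2 (difference 1.36 ± 0.33, adjusted p = 0.0433 by limma, 0.099 without ZT2). *Nr1d1* had 5.16 and 5.84 at ZT10 and 0.95 and 1.65 at ZT14, against 2.63 and 3.63 at ZT22 and 11.5 and 10.6 at ZT2 and was not called (adjusted p = 0.337 by limma). Its ZT2 livers were above and its ZT14 livers below those of ZT10 and ZT22. *Rora* was not called (difference −0.016).

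Of the PAR bZIP genes, *Dbp* (chromosome 7, 52960458 to 52965525, mm9) and *Tef* (chromosome 15, 81632851 to 81657291, mm9) were higher at dusk. *Dbp* had 25 and 21.9 at ZT10 and 3.99 and 5.02 at ZT14, against 0.37 and 0.6 at ZT22 and 0.49 and 0.95 at ZT2. The ZT10 livers were above the ZT14 livers (log2 difference 2.32, adjusted p = 0.0133 by limma). Its dusk to dawn difference of 3.68 ± 0.58 had an adjusted p of 0.011, and of 0.0996 without ZT2. *Tef* varied less within each side. It had 32.3 and 28.4 at ZT10 and 22.4 and 22.7 at ZT14, against 6.29 and 5.9 at ZT22 and 4.17 and 4.67 at ZT2, and its difference of 2.28 ± 0.16 held without ZT2 (adjusted p = 0.0104 by limma). *Hlf* lay just outside the threshold (difference 0.56 ± 0.14, adjusted p = 0.0525 by limma). *Nfil3* had 6.36 and 7.35 at ZT10 and 12 and 12.9 at ZT14, against 19.5 and 21.8 at ZT22 and 13.2 and 12.2 at ZT2. Its ZT2 livers overlapped its ZT14 livers, and it was not called (difference −0.79 ± 0.27, adjusted p = 0.114 by limma). *Bhlhb2* (DEC1) was not called either (adjusted p = 0.115), and *Bhlhb3* (DEC2) was below the expression minimum.

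**Figure D3:**
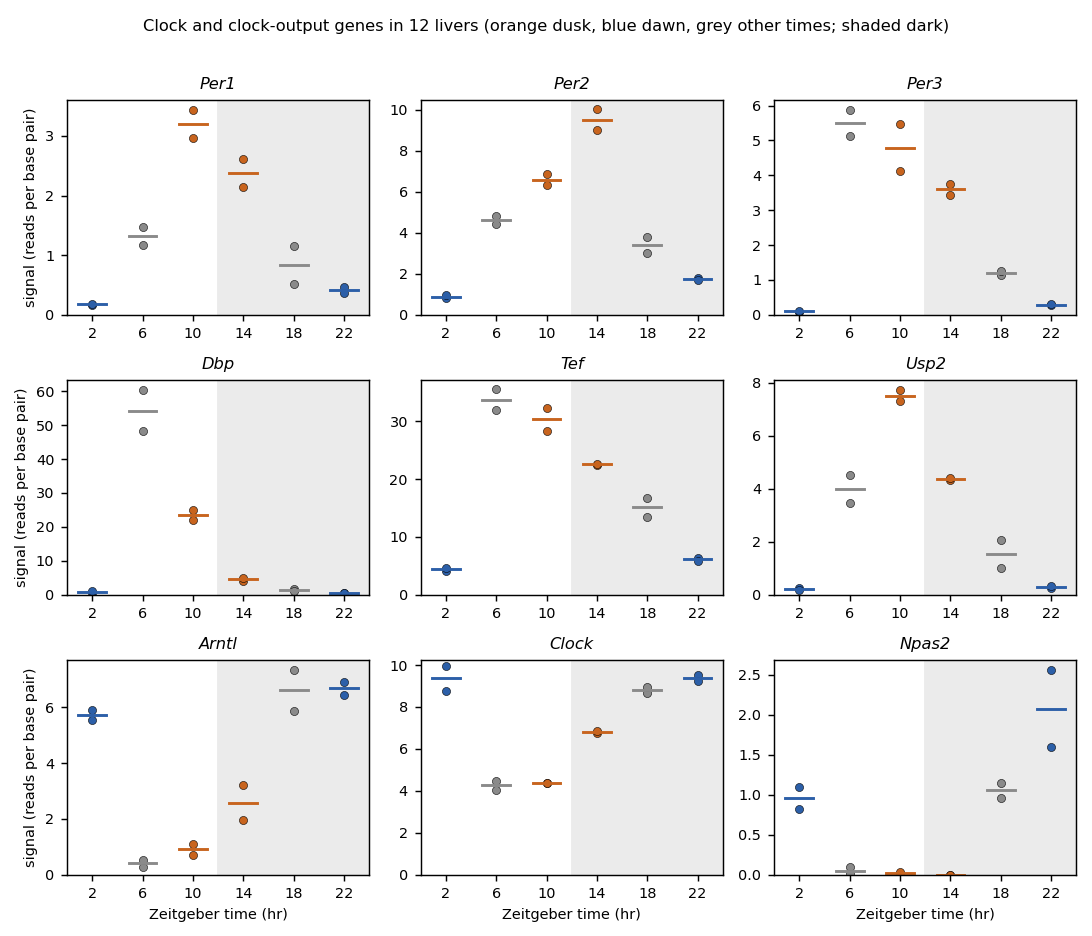
Signal (reads per base pair) of 9 clock and clock-output genes against Zeitgeber time in hr. Points are single livers, bars are means of 2, orange marks dusk, blue dawn and grey the times not compared, and shading marks the dark phase. The dusk livers are above all dawn livers in *Per1*, *Per2*, *Per3*, *Dbp*, *Tef* and *Usp2* and below them in *Arntl*, *Clock* and *Npas2*.

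The promoters of some of these genes hold the elements through which the clock is known to act, and they are shown so that the letters can be read beside the values. Only windows that hold such letters were chosen. Genes that were not called, such as *Cry1*, *Elovl5*, *Lamp1* and *Ctsd*, also hold the E-box. The sequences are from RefSeq (GRCm38.p6), from the gene's strand, and hold the 250 bases before an annotated start of the gene. RefSeq gives more than 1 start for some genes. *Tef* is shown at its second start, inside the gene, and the window of its first start also holds an E-box, 127 bases before that start. For *Arntl* the 30 bases around its element, from 19 to 48 after its second start, are given. The capitals mark the E-box CACGTG in *Gm129* (chr3:95882229-95882478, minus strand, 3 E-boxes), *Per1* (chr11:69098699-69098948, plus strand) and *Tef* (chr15:81811164-81811413, plus strand). In *Per3* (chr4:151044666-151044915, minus strand) they mark 2 D-boxes of the form TTANGTAA. In *Arntl* (chr7:113207529-113207558, plus strand) and the bile salt pump gene *Abcb11* (chr2:69342617-69342866, minus strand) they mark the core of a ROR element, TAGGTCA or its complement. In *Hspe1* (chr1:55087898-55088147, plus strand), which shares this stretch with its neighbour *Hspd1* on the other strand, they mark 2 overlapping heat shock elements (blocks GAA, TTC and GAA with 2 bases between blocks), 1 on each strand.
Gm129: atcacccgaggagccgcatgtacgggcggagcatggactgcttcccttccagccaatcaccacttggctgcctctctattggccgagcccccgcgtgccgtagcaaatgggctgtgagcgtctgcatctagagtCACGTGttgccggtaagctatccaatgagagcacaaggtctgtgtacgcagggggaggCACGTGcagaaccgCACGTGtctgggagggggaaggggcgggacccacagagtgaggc
Per1: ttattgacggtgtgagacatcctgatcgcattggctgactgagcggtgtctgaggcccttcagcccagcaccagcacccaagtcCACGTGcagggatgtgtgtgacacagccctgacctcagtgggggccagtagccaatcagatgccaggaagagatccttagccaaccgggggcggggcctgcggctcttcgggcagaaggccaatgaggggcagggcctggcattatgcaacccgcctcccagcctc
Tef: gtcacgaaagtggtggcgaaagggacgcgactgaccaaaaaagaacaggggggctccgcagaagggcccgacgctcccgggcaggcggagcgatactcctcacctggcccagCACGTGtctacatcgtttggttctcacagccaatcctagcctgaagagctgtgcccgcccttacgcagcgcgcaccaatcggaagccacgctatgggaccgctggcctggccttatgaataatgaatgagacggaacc
Per3: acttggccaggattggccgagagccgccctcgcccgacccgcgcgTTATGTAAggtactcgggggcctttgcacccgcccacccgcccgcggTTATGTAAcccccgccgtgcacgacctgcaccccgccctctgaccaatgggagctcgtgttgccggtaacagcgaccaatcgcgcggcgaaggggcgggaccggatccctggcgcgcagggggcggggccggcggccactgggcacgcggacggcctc
Arntl: gaaggcagaaagTAGGTCAgggacggaggt
Abcb11: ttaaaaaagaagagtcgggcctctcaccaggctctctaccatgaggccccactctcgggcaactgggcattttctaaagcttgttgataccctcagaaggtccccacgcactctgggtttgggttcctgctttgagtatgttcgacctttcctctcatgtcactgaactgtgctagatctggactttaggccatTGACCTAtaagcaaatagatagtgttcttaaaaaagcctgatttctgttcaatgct
Hspe1: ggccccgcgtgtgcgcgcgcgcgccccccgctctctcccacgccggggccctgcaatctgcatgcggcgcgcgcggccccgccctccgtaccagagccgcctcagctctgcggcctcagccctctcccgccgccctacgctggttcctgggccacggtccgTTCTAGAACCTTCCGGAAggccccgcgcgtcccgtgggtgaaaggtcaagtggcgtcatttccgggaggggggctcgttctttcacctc

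Over the full windows of 300 bases (250 before to 50 after a start), searched on both strands and counted where any window of a gene held the letters, the E-box CACGTG was found in 38 of 242 genes higher at dusk (15.7%) and in 20 of 195 higher at dawn (10.3%). Among expressed genes with a window the share was 12.3%, and among all 27025 genes with a window 8.09%. The D-box TTANGTAA was found in 14 genes higher at dusk (5.79%) and 1 higher at dawn (0.513%), against 2.04% of expressed genes and 2.72% of all. For TAGGTCA the shares were 3.31%, 5.13%, 2.59% and 2.97%, in the same order. For the heat shock element they were 2.48%, 2.05%, 0.581% and 0.662%. It was found in 3 of 18 expressed chaperone genes with a window, and *Hspe1* and *Hspd1*, which share 1 stretch, count as 2 of them. Among 21 expressed clock list genes with a window, the E-box was found in 4, the D-box in 1 and TAGGTCA in 2. These are counts of letters, without a test, and a match is not a bound site.

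Clock outputs and enzymes of drug and nucleoside metabolism were among the genes with the largest differences that held without ZT2. *Usp2* (chromosome 9, 43875104 to 43903708, mm9), a ubiquitin protease, had 7.31 and 7.74 at ZT10 and 4.34 and 4.41 at ZT14, against 0.26 and 0.31 at ZT22 and 0.27 and 0.19 at ZT2. Its difference of 3.57 ± 0.22, 11.9-fold on this scale, was the largest of those that held without ZT2 (adjusted p = 0.00979 by limma). *Wee1* (chromosome 7, 117265864 to 117285626), the kinase that restrains entry into mitosis, had 5.99 and 6.52 at ZT10 and 4.57 and 4.71 at ZT14, against 0.86 and 0.7 at ZT22 and 0.45 and 0.41 at ZT2. This 6.75-fold difference held (adjusted p = 0.00979 by limma). *Upp2* (chromosome 2, 58419709 to 58645382), a uridine phosphorylase, had 173 and 84.4 at ZT10 and 56.1 and 63.2 at ZT14, against 9.59 and 11.5 at ZT22 and 16.2 and 11.8 at ZT2, with ZT10 replicate 1 above the other dusk livers. It was 6.92-fold higher at dusk and held (adjusted p = 0.0447 by limma). *Por* (chromosome 5, 136145903 to 136211196), the electron donor of all microsomal cytochromes P450, had 131 and 109 at ZT10 and 94.2 and 118 at ZT14, against 26.4 and 31.2 at ZT22 and 26.1 and 26.6 at ZT2. It had the smallest p of all genes, and it was 4.05-fold higher at dusk (log2 difference 2.02 ± 0.11, adjusted p = 0.000237) and 1.95 on the log2 scale against ZT22 alone. The flavin monooxygenase gene *Fmo2* had 6.36 and 6.35 at ZT10 and 4.83 and 5.18 at ZT14, against 1.74 and 0.68 at ZT22 and 1.14 and 0.97 at ZT2, 4.43-fold higher at dusk, and held.

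Of the other outputs on the clock list, *Ccrn4l* and *Inmt* were called with all 8 livers and missed the threshold without ZT2. The deadenylase gene *Ccrn4l* (nocturnin) was 3.49-fold higher at dusk (adjusted p = 0.00626 by limma, 0.0607 without ZT2). *Inmt*, a methyltransferase gene, had 719 and 674 at ZT10 and 417 and 503 at ZT14, against 247 and 233 at ZT22 and 80.4 and 73.1 at ZT2 (adjusted p = 0.0262 by limma, 0.0945 without ZT2). Its 4 time points stood apart from one another, with adjusted p of 0.0473 between ZT10 and ZT14 and 0.000272 between ZT22 and ZT2 in limma. *Alas1*, the rate-limiting enzyme of heme synthesis, was at 217 and 204 at ZT10 and 51 and 51.5 at ZT14, against 16.7 and 33.6 at ZT22 and 27.1 and 54 at ZT2. Only the ZT10 livers were high, ZT14 overlapped ZT2, and the gene was not called (adjusted p = 0.0955 by limma).

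Of the 34 genes that held without ZT2 and were higher at dusk, those not yet described include genes of hormone and nutrient signalling. Except for *Fkbp5*, *Prodh* and *Myc* they were named after their values were seen. *Fkbp5*, a glucocorticoid-induced chaperone of the glucocorticoid receptor, had 13.9 and 10.6 at ZT10 and 16.6 and 12.8 at ZT14, against 5.53 and 5 at ZT22 and 3.57 and 3.81 at ZT2, 2.91-fold higher at dusk. *Serpina6*, which encodes corticosteroid-binding globulin and is known to fall in inflammation, had 272 and 217 at ZT10 and 206 and 247 at ZT14, against 95.7 and 68.2 at ZT22 and 47.4 and 44.8 at ZT2. ZT22 replicate 1, the dawn liver with low *Saa1*, was also below all dusk livers. *Pbef1* (*Nampt*, the rate-limiting enzyme of NAD salvage) was at 25.6 to 39.7 at dusk and 9.19 to 13.8 at dawn. *Nr1i3* (the xenobiotic receptor CAR) was at 57.8 to 63.1 at dusk, at 34.1 and 30.6 at ZT22, and at 13.7 and 13.7 at ZT2. *Myc* was at 2.29 to 3.62 at dusk and 0.65 to 0.98 at dawn, and its means at ZT6 and ZT18 were 0.675 and 0.385, so that the dusk livers were above all other livers.

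The receptor gene *Il6ra* had nearly equal dawn values, 4.81 and 4.72 at ZT22 and 4.77 and 4.76 at ZT2, against 10.4 and 8.61 at ZT10 and 10.8 and 11.8 at ZT14, and its difference was 1.08 against ZT22 and 1.08 against ZT2. *Il6ra* encodes the interleukin-6 receptor. Further genes of this group were *Igfbp5*, *St3gal5*, *Akr1c19*, *Tsku*, *Tomm40l*, *Slc16a12*, *Ak3l1*, *Marveld1*, *Prodh*, *Smarca2*, C230093N12Rik (*Fam102a* in RefSeq) and *Tnks1bp1*, with log2 differences from 0.68 (*Tnks1bp1*) to 1.83 (*St3gal5*). *Prodh*, the first enzyme of proline breakdown, had 56.6 and 50.8 at ZT10 and 50.9 and 54 at ZT14, against 32.9 and 31.6 at ZT22 and 29.5 and 26.5 at ZT2. Most other names in the group are clone or locus names.

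The 13 differences that held without ZT2 and were higher at dawn ran from −0.83 (*Cbs*) to −2.68 (*Npas2*), against 0.68 (*Tnks1bp1*) to 3.57 (*Usp2*) for those higher at dusk. *Grk5* (chromosome 19, 60965652 to 61168456, mm9), a kinase of G protein-coupled receptors, had 0.64 and 1 at ZT10 and 1.31 and 0.71 at ZT14, against 4.27 and 3.72 at ZT22 and 3.89 and 2.81 at ZT2, 3.42-fold higher at dawn (adjusted p = 0.0394 without ZT2, by limma). *Ppard*, the receptor PPARδ, had 1.31 and 0.93 at ZT10 and 1.74 and 1.68 at ZT14, against 5.33 and 7.45 at ZT22 and 3.26 and 2.2 at ZT2. Its ZT22 livers were above its ZT2 livers, so the difference was −2.01 against ZT22 and −0.85 against ZT2. *Rnf125* (chromosome 18, 21103126 to 21142349), a ubiquitin ligase, was at 24.7 to 39.4 at dusk and 74.1 to 101 at dawn. *Cd9*, a tetraspanin of the cell surface, was at 3.03 to 4.5 and 6.91 to 9.83. In each of these genes every dawn liver was above every dusk liver. *Hes1*, a transcriptional repressor downstream of Notch, was at 1.94 to 2.26 at dusk, where all 4 livers lay close together, and 3.55 to 5.35 at dawn. *MUG3* (*Mug-ps1* in RefSeq), one of several near-identical murinoglobulin genes among which reads may be split, was at 10.1 to 11.2 and 18.9 to 29.3. *Cbs*, which makes cystathionine from homocysteine, was at 73 to 83.7 and 130.1 to 145 and was named after its values were seen, as was 1300002K09Rik (*Stra6l* in RefSeq).

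Of all expressed genes, 45.1% had a higher mean log2 value at dusk, and the counts of each list below stand beside this share and the 3.44% called higher at dusk and 2.77% called higher at dawn. The bile acid list has 18 expressed genes, of which 2 were higher at dawn and 1 was higher at dusk, with a median log2 difference of 0.066. *Abcb11* (chromosome 2, 69076339 to 69180671, mm9), the pump that exports bile salts into the canaliculus, had 54.1 and 51.4 at ZT10 and 56.7 and 53.8 at ZT14, against 93.6 and 96.2 at ZT22 and 120.4 and 114 at ZT2. *Hsd3b7*, an early enzyme of both synthesis pathways, had 95.6 and 108 at ZT10 and 97.5 and 86.9 at ZT14, against 173 and 169 at ZT22 and 199 and 184 at ZT2. Every dawn liver was above every dusk liver in both genes, by 1.95-fold and 1.87-fold, and both held without ZT2 (adjusted p = 0.0258 and 0.0394 by limma). *Cyp7a1*, the rate-limiting enzyme, was higher at dusk, with 50.7 and 20.4 at ZT10 and 30.2 and 21.1 at ZT14, against 8.05 and 11.7 at ZT22 and 8.75 and 5.52 at ZT2 (log2 difference 1.76 ± 0.31, adjusted p = 0.0158 by limma). Its adjusted p without ZT2 was 0.148. The uptake carrier *Slco1b2* and the conjugating ligase *Slc27a5* were not called, with differences of 0.19 and 0.21.

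Some of the largest differences were called with all livers and did not hold without ZT2. By the rule for named genes, which takes genes with all 8 values above 0 and no overlap, these were *Dbp*, *Thrsp*, *Cyp2a5* and *Lpin1* at dusk. *Thrsp* (chromosome 7, 104561448 to 104566240, mm9), a lipogenic factor, had 1034 and 1559.9 at ZT10 and 573 and 684 at ZT14, against 275 and 103 at ZT22 and 43.5 and 40.6 at ZT2. The ZT22 livers differed from each other and lay between dusk and ZT2. *Cyp2a5* (chromosome 7, 27620324 to 27628567), a cytochrome P450, had 768 and 371 at ZT10 and 473 and 1091 at ZT14, against 106 and 94.4 at ZT22 and 52.2 and 44.1 at ZT2. Its near-identical neighbour *Cyp2a4* was also called, and how reads were shared between them is uncertain. *Lpin1*, a phosphatidate phosphatase, had 23.9 and 40.2 at ZT10 and 12.3 and 8.44 at ZT14, against 4.25 and 3.28 at ZT22 and 2.62 and 1.93 at ZT2, and without ZT2 the adjusted p were 0.104, 0.0526 and 0.173 for these 3. At dawn, OTTMUSG00000007485 (chromosome 4, 61711268 to 61715192), which the annotation names *Mup20* and which belongs to a family of near-identical major urinary proteins, had 1124 and 345 at ZT10 and 580.4 and 658 at ZT14, against 2508 and 4149 at ZT22 and 8078 and 9906 at ZT2. *Elovl3* (chromosome 19, 46206387 to 46210184), a fatty acid elongase, had 10.1 and 59.5 at ZT10 and 78.2 and 64 at ZT14, against 360 and 347 at ZT22 and 319.8 and 291 at ZT2, with ZT10 replicate 1 far below the other dusk livers. *Cdh1* encodes E-cadherin of the adherens junctions and *Spon2* a secreted matrix protein. *Cdh1* had 1.77 and 0.85 at ZT10 and 3.67 and 5.22 at ZT14, against 8.65 and 9.57 at ZT22 and 17.2 and 12.6 at ZT2. *Spon2* had 0.43 and 0.58 at ZT10 and 1.3 and 0.31 at ZT14, against 2.42 and 2.86 at ZT22 and 5.01 and 3.82 at ZT2. The dawn livers were above the dusk livers in all 4, and without ZT2 the adjusted p were 0.0945, 0.159, 0.231 and 0.129 by limma.

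Of 20 expressed genes of fatty acid and triglyceride synthesis, 19 had a higher mean log2 value at dusk and 4 were called, all higher at dusk, with a median difference of 0.78. Besides *Thrsp* and *Lpin1* these include *Dgat2*, the last step of triglyceride synthesis, at 187 to 254 at dusk and 112 to 165 at dawn (adjusted p = 0.0346 by limma). Of the 4 called, 1 held without ZT2, and *Dgat2* did not (adjusted p = 0.233 by limma). *Scd1*, the stearoyl-CoA desaturase, was not called (adjusted p = 0.5). It had 2237 and 5866 at ZT10 and 679.7 and 377 at ZT14, against 2308 and 1361 at ZT22 and 162 and 190.4 at ZT2. ZT10 was thus above ZT14 and ZT22 above ZT2, and the sides overlapped. *Elovl5* was not called (difference 0.20). No gene of 25 for cholesterol synthesis and uptake was called by limma, and the median difference was 0.16. *Sc5d*, a desaturase late in the pathway and a member with a high signal, had a difference of −0.039 ± 0.23 (SE).

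Fatty acid oxidation and PPARα targets had a median difference of 0.49, with 24 of 27 expressed genes above 0 (all expressed genes, 45.1%). The 2 genes called are a share near the 6.21% of all genes. *Cpt1a*, which commits fatty acids to the mitochondrion, had 79.9 and 91.1 at ZT10 and 76.3 and 72.2 at ZT14, against 56 and 48.3 at ZT22 and 49.2 and 49.9 at ZT2 (difference 0.65 ± 0.095, adjusted p = 0.00901 by limma). *Angptl4*, an inhibitor of lipoprotein lipase, had 26.7 and 32.2 at ZT10 and 21.9 and 19.2 at ZT14, against 15.4 and 11.6 at ZT22 and 8.38 and 9.3 at ZT2 (difference 1.16 ± 0.21, adjusted p = 0.0183). Neither *Cpt1a* nor *Angptl4* held without ZT2 (adjusted p = 0.104 and 0.162 by limma). *Fabp1*, a fatty acid binding protein gene, was not called (0.49).

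Genes of gluconeogenesis and amino acid breakdown were called higher at dusk in 7 of 24 cases and higher at dawn in 1, with a median of 0.40. The alanine transaminase gene *Gpt1* had 101 and 104 at ZT10 and 85.7 and 92.8 at ZT14, against 65.3 and 56.6 at ZT22 and 60.3 and 51.6 at ZT2. The ornithine transaminase gene *Oat* had 317 and 335 at ZT10 and 204 and 238 at ZT14, against 164 and 140 at ZT22 and 145 and 112 at ZT2. Every dusk liver was above every dawn liver in both genes. *Foxo1*, a transcription factor of gluconeogenesis, was at 6.93 to 8.7 and 4.97 to 5.89 (difference 0.48 ± 0.093, adjusted p = 0.0215 by limma). Of the genes of this list that were called, *Prodh* alone held without ZT2, and the adjusted p of *Gpt1*, *Oat* and *Foxo1* were then 0.0944, 0.179 and 0.188. *Tdo2*, which opens tryptophan breakdown, was not called (0.19). In the glycogen list, 2 of 11 were called higher at dusk and none higher at dawn. *Gys2*, the liver glycogen synthase, had 56 and 51.3 at ZT10 and 42.8 and 69.7 at ZT14, against 32.6 and 26.4 at ZT22 and 18.3 and 21.2 at ZT2 (2.24-fold, adjusted p = 0.0146 by limma), and *Ppp1r3b*, a subunit that directs the phosphatase PP1 to glycogen, was 1.81-fold higher at dusk. Neither held without ZT2 (adjusted p = 0.127 and 0.161 by limma). *Pygl*, the phosphorylase that breaks glycogen down, had a difference of −0.089 and was not called, and *Ugp2* was not called either (adjusted p = 0.0899).

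Of 29 expressed genes of drug metabolism, 11 were higher at dusk and 1 was higher at dawn, with a median of 0.67. After *Cyp2a5* the smallest p values were those of *Fmo5* (319.5 and 309 at ZT10 and 349 and 352 at ZT14, against 217 and 215 at ZT22 and 159.9 and 162 at ZT2), *Aox3* and *Cml4*. *Aox3*, an aldehyde oxidase, was the one higher at dawn, at 119 to 156 against 70.1 to 90.3 at dusk. *Cml4* was at 26 to 36 at dusk and 10.1 to 20.8 at dawn. Of the list, *Nr1i3* alone held without ZT2. The genes with the highest signal among those not called, *Cyp3a11* and *Cyp2c29*, had differences of 0.48 ± 0.15 and 0.44 ± 0.27 (SE).

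**Figure D4:**
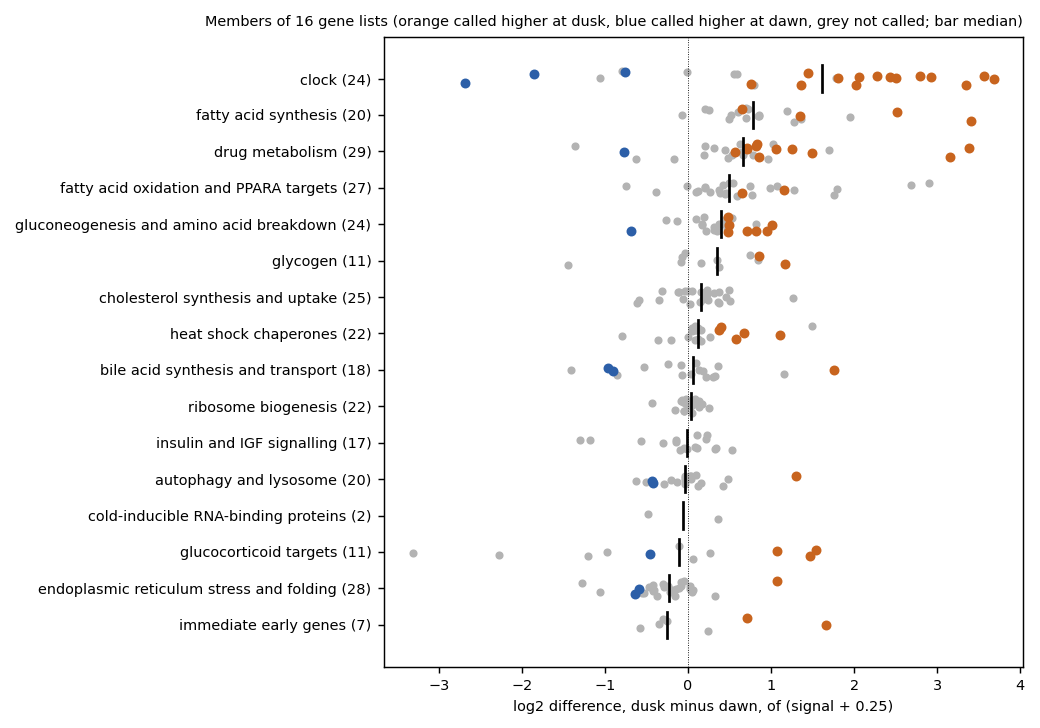
Differences of log2(signal + 0.25), dusk minus dawn, of the expressed members of 16 gene lists, with the number expressed in parentheses. Each point is 1 gene, orange where called higher at dusk, blue where called higher at dawn and grey where not called, and the bar is the median. The clock list has the highest median (1.61), and its outputs are genes that the study names as rhythmic in these data.

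Heat shock chaperones were called higher at dusk in 5 of 22 cases and none at dawn, and the median was 0.12. The constitutive chaperone gene *Hspa8* had 242 and 271 at ZT10 and 373 and 414 at ZT14, against 181 and 148 at ZT22 and 112 and 159 at ZT2. Its co-chaperone *Dnaja1* had 75.1 and 76.5 at ZT10 and 82.8 and 85.6 at ZT14, against 54.5 and 49.5 at ZT22 and 49.3 and 47 at ZT2. Every dusk liver was above every dawn liver, and the values were 2.15-fold and 1.6-fold higher at dusk. *Dnajb1*, another co-chaperone, was also called (difference 0.57 ± 0.14). The mitochondrial pair *Hspe1* and *Hspd1*, which share the promoter shown above, had closely similar differences of 0.40 ± 0.087 and 0.37 ± 0.087 (adjusted p = 0.0318 and 0.0393 by limma). None of the 5 held without ZT2, where their adjusted p by limma were 0.155 (*Hspa8*), 0.0648 (*Dnaja1*), 0.327 (*Dnajb1*), 0.101 (*Hspe1*) and 0.193 (*Hspd1*). The cytosolic *Hsp90ab1* and *Hsp90aa1* were not called. *Hsp90aa1* was at 39.5 and 40.4 at ZT10 and 82.9 and 91 at ZT14, against 60.7 and 54.5 at ZT22 and 59.2 and 48.1 at ZT2. The ZT14 livers were above the ZT10 livers (−1.11, adjusted p = 0.0133 by limma), and the dawn livers lay between. The cold-inducible *Rbm3* and *Cirbp* were not called (0.37 and −0.48).

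Genes of the endoplasmic reticulum had a median difference of −0.22, and 25 of 28 were not called. *Herpud1*, a component of protein degradation at this membrane, was higher at dusk (113 and 154 at ZT10 and 107 and 117 at ZT14, against 56.7 and 67.7 at ZT22 and 53.9 and 53.7 at ZT2). The lectin chaperone *Calr* and the transcription factor *Atf4* were higher at dawn, by 1.55-fold and 1.51-fold. None of these 3 held without ZT2 (adjusted p = 0.0746, 0.213 and 0.237 by limma). *Hspa5* and *P4hb* were not called. In the autophagy and lysosome list, *Bnip3*, a receptor for mitochondrial autophagy, was higher at dusk (100.4 and 99.7 at ZT10 and 76.8 and 89.6 at ZT14, against 44.4 and 50.9 at ZT22 and 30.7 and 26.4 at ZT2), and *Sqstm1* (p62) and *Ctsl* (cathepsin L) were higher at dawn, at 109 to 119 against 76 to 92.8 and 148 to 159 against 104 to 126. These 3 did not hold without ZT2 either (adjusted p = 0.0504, 0.188 and 0.194). *Lamp1* and *Ctsd* were not called (−0.031 and 0.12).

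Glucocorticoid targets were not uniform. *Zbtb16* had 2.24 and 4.59 at ZT10 and 2.01 and 2.23 at ZT14, against 0.76 and 0.69 at ZT22 and 0.8 and 0.91 at ZT2. *Tsc22d3*, which encodes the glucocorticoid-induced leucine zipper, had 41.1 and 35.7 at ZT10 and 54.2 and 54.1 at ZT14, against 33.1 and 26.3 at ZT22 and 15.9 and 15.5 at ZT2. Both were higher at dusk, like *Fkbp5*, and *Sgk*, a kinase gene, was higher at dawn (3.52 to 4.6 against 2.75 to 3.06). Of the called genes on this list *Fkbp5* alone held without ZT2, and the adjusted p of *Zbtb16*, *Tsc22d3* and *Sgk* were then 0.102, 0.234 and 0.0911. *Lcn2* and *Mt1*, also on this list and among the acute-phase genes above, were not called (adjusted p = 0.133 and 0.425 by limma). Of the immediate early genes, *Btg2* was called next to *Myc* (difference 0.71 ± 0.15, adjusted p = 0.0323, and 0.214 without ZT2), and *Ier2* and *Junb* were not. No gene was called by limma among 22 for ribosome biogenesis or 17 for insulin and IGF signalling, whose median differences were 0.031 and −0.0086. Their members with the highest signal were *Npm1* (0.14 ± 0.071) and *Nola3* (0.036 ± 0.08), and *Igfbp4* (0.33 ± 0.10) and *Ghr* (0.21 ± 0.094).

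The time points within a side were compared in the same way. In the fit of time-point means over 12 livers, 91 genes differed between ZT10 and ZT14 (0.892%), 36 higher at ZT10 and 55 higher at ZT14. Between ZT22 and ZT2, 254 differed (2.49%), 169 higher at ZT22 and 85 higher at ZT2. Whether the counts differ was not tested. Of the genes called between dusk and dawn, 8 also differed within dusk and 39 within dawn. Of the genes higher at dusk, 32 were higher at ZT22 than at ZT2, and 1 was higher at ZT2.

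Most genes called had their highest mean within the side where they were higher. The same livers made the calls, so this was largely fixed in advance and is a description only. Of those higher at dusk, 170 (48.4%) had it at ZT10, 105 at ZT14, 67 at ZT6 and 9 at ZT18. Of those higher at dawn, 173 (61.3%) had it at ZT2 and 94 at ZT22. The ZT6 and ZT18 livers did not enter the comparison. The ZT6 mean was nearer to dusk than to dawn in 239 of the 351 genes higher at dusk, and the ZT18 mean in 149. Of the 282 genes higher at dawn, the ZT6 mean was nearer to dawn in 69 and the ZT18 mean in 130. Both means lay between those of dusk and dawn in 364 genes.

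**Figure D5:**
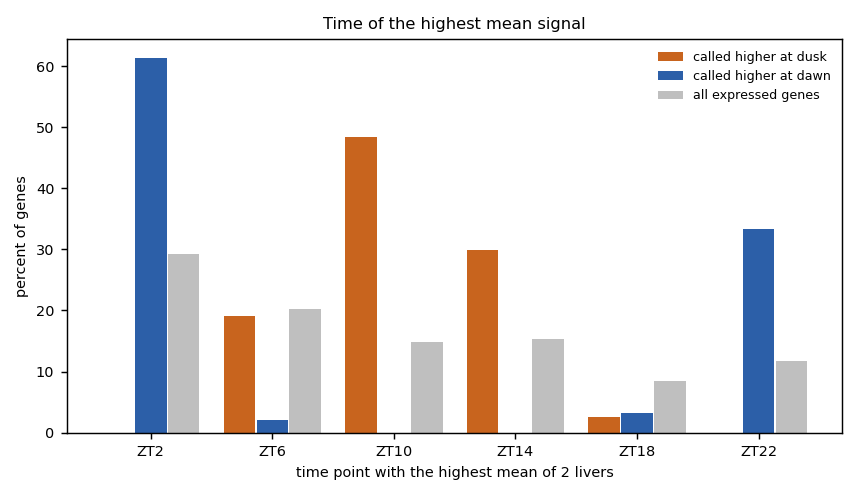
Percent of genes (vertical axis) by the time point with the highest mean of 2 livers (horizontal axis), for genes called higher at dusk, genes called higher at dawn and all expressed genes. Genes higher at dusk are most often highest at ZT10, and genes higher at dawn at ZT2, where 29.2% of all expressed genes are also highest. The calls used the same livers, so a highest mean on the other side was nearly excluded in advance.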

How the data were processed

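Polyadenylated RNA of 12 mouse livers, 2 per time point, was sequenced (RNA-Seq), and 8 were compared here. The submitters' processing notes name CASAVA 1.8, TopHat and the genome build mm9. According to the study's methods, reads that map to a single place were kept. The reads on a gene's exons, whichever isoform they belong to, were divided by the total length of these exons. The signal is read here as the mean coverage of the exons. The authors deposited this signal as coverage in reads per base pair (rpbp), scaled to 10000000 uniquely mapped sequences per sample. Strand was not used, so overlapping and antisense genes cannot be told apart. The coverage holds no read counts, so no counting interval is given. The depth limits low signals most. The median SD of 2 livers of a time was 8.95% of the gene's mean. The table's columns named ZT20 are the ZT22 samples of the labels. Its columns of the authors' own rhythm tests (score, phase and p-value) hold the study's findings and were not used.

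Genes with a signal above 2 in any sample were kept. Values were tested as log2(signal + 0.25) with limma 3.58.1 (R 4.3.3, trended empirical Bayes), 4 dusk against 4 dawn livers, with Benjamini-Hochberg adjustment over all 10198 genes and a threshold of 0.05. Time points were compared with each other in a fit of time-point means over all 12 livers, which share its estimate of spread. Comparisons without ZT2 or without ZT22 share the dusk livers with the full comparison. A gene held where it was called in both with the same sign. The summed signal was 371867 to 386529 per sample, and size factors were 0.975 to 1.04, so no further scaling was used. The fits were tested on simulated data with known changes before use. These data held no difference between the time points of a side, unlike the livers. Of 50 genes changed 1.5-fold, 54% were recovered with 8 livers and 30% without ZT2. Of 50 changed 2-fold, 94% and 84% were recovered. False calls were 5.98% and 1.31% of those made.

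Genes, lists and the comparison were chosen with earlier results of these data known. Named genes were all clock list members, the 8 held and 4 not held genes per direction with the largest differences (all 8 values above 0, no overlap, mean of at least 2, clone names passed over), and from each further list up to 4 called genes of smallest p and up to 2 not called of highest mean. A few genes taken by this rule are not reported here. Others are marked as named after their values were seen. RefSeq (GRCm38.p6) gave promoters and newer names, and 16084 of 20069 names matched. Gene places are from the GENCODE annotation of mm9. Alternatives were other pseudocounts and minimums, size factors, a replicate block, time-point means and leaving out livers or time points.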

Additional observations from a re-analysis of the deposited data

Results flagged for a closer look

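Among 202 groups of 4 livers (the dusk and the dawn side of each named gene), 8 had a liver whose gap to the others passed Dixon's critical value for 4 samples, where chance passes about 1 in 20. In *Npas2*, ZT10 replicate 2 was at 0.03 and the other dusk livers were listed at 0. In *Bhlhb2* (DEC1), ZT14 replicate 2 was at 27, below the other dusk livers at 37.05 to 38.27. In *Por*, ZT22 replicate 2 was at 31.2, above the other dawn livers at 26.08 to 26.58. In *MUG3*, the same liver was at 29.31 against 18.89 to 20.03. *Elovl5* was at 305.45 in ZT10 replicate 2 and at 72.53 to 104.94 in the other dusk livers. *Zbtb16* was at 4.59 in that liver and at 2.01 to 2.24 in the others. *Sc5d* was at 161.82 in ZT22 replicate 1 and at 109.41 to 117.03 in the other dawn livers, and *Ugp2* was at 70.31 there and at 33.39 to 38.71 in the others.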

How the results depend on the processing

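The count of genes called between dusk and dawn, 633 as reported, was 392 with no minimum, 1869 with time-point means on 12 livers, 93 without ZT10 and 1062 without ZT22. Leaving out 1 liver gave 189 (without ZT2 replicate 2) to 1060 (without ZT22 replicate 1). With ZT2 and ZT22 replicate 2 left out, an alternative chosen after seeing the data, it was 0 in the fit of 5 livers (786 at an unadjusted p below 0.05, by limma) and 45 in that of 9. The count that held without ZT2, 47 as reported, was 10 with no minimum and 457 with time-point means. Leaving out 1 more liver of ZT2, ZT10 or ZT14 gave 9 (without ZT14 replicate 1) to 44 (without either ZT2 liver, where 43 and 44 were shared). With 1 ZT22 liver left out the count is not comparable, since the fit without ZT2 then has a single dawn liver. The share higher at dusk among the genes called, 55.5% as reported, was 65.9% without ZT22 replicate 2, 51.2% without ZT14 replicate 1 and 49.9% with time-point means, and without ZT14 more genes were higher at dawn (258) than at dusk (217). The replicate numbers of the labels were not used as pairs in the main fit. Deviations of livers with the same number correlated at −0.153 to 0.0791 over 6 pairs of time points. This cannot show that the numbers carry no grouping. With the number as a replicate block, 376 genes were called between dusk and dawn, 6 held without ZT2, and 148 rather than 254 were called between ZT22 and ZT2. The causes were not tested. No named gene changed direction under these alternatives, and 38 of the 64 named genes called stayed so under the other pseudocounts and minimums, size factors, the block, time-point means and each single liver left out, of which 20 also held without ZT2. Among the single livers, most calls were lost without ZT2 replicate 1 or 2 (23 each), ZT22 replicate 2 (21) or ZT10 replicate 1 (20). The genes that lost a call include *Arntl*, *Clock*, *Npas2*, *Nr1d2*, *Inmt*, *Ppard*, *Lpin1*, *Elovl3*, *Cdh1*, *Dgat2*, *Oat*, *Foxo1*, *Gys2*, *Ppp1r3b*, *Angptl4*, *Hspa8*, *Hspe1*, *Hspd1*, *Calr*, *Atf4*, *Sqstm1*, *Ctsl*, *Sgk*, *Tsc22d3* and *Btg2*.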

Other observations

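Some genes outside the lists had large differences. *Rgs16*, a regulator of G protein signalling, had 9.29 and 13.6 at ZT10 and 2.13 and 1.81 at ZT14, against 1.54 and 0.07 at ZT22 and 0.1 and 0 at ZT2 (log2 difference 3.41 ± 0.78, adjusted p = 0.0378 by limma), with ZT6 livers at 26.2 and 33.1 above all of these. *Acot3*, a peroxisomal thioesterase, had 16 and 36.2 at ZT10 and 10.7 and 5.01 at ZT14, against 3.63 and 0.38 at ZT22 and 0 and 0 at ZT2 (adjusted p = 0.0251 by limma), and ZT22 replicate 1 was nearer to dusk than the other dawn livers. At dawn, *Loxl4*, a lysyl oxidase homolog, had 0.31 and 0.12 at ZT10 and 0.54 and 0.38 at ZT14, against 5.2 and 2.42 at ZT22 and 3.25 and 2.12 at ZT2 (difference −2.55 ± 0.32), and *Pitx3*, a homeobox gene, had 0 and 0.52 at ZT10 and 0.59 and 0.87 at ZT14, against 3.01 and 4.43 at ZT22 and 2.05 and 1.9 at ZT2 (difference −2.18 ± 0.46). These 4 were chosen after their values were seen, and none held without ZT2.

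Other large differences were not called. *Cyp2b9* had 98.1 and 157 at ZT10 and 69.4 and 49.8 at ZT14, against 41.7 and 16.8 at ZT22 and 0.12 and 0.21 at ZT2 (difference 4.69, adjusted p = 0.0937 by limma), and was near 0 in the ZT2 livers alone of all 12. *Saa2* had a difference of −5.20 (adjusted p = 0.081). *Cyp4a14*, a PPARα target, had 2.90 (adjusted p = 0.315).

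A few genes were at most 0.3 in some livers and at least 3 in all others, in 9 cases over the 12 livers. *Cyp2b9*, above, is one of them. *Moxd1* was at 61.5 and 57.2 at ZT2 and at most 0.08 in the other 10 livers. *Pcdhb11* was at 23.5 and 22.9 at ZT2, 25.2 in ZT22 replicate 2 and 37 in ZT18 replicate 2, and at most 0.19 in the other 8. *Spcs3* was at 0.03 or 0.04 in 4 livers of 4 time points (ZT2 replicate 2, ZT6 replicate 2, ZT10 replicate 1 and ZT14 replicate 2) and at 18.98 to 33.01 in the rest. *Gja10* was at most 0.14 in both ZT10 and both ZT22 livers and in ZT18 replicate 2, and at 4.16 to 6.81 in the rest. These values were not analysed further, and no cause was tested. Of the adipocyte markers, *Cfd* was at 8.18 in ZT10 replicate 2 and listed at 0 in the other dusk livers and all dawn livers, and outside the comparison it was at 1.93 and 6.2 at ZT6 and 1.12 in ZT18 replicate 1. Among the genes called, 15 RefSeq genes appear under more than 1 name (30 names), so the counts of genes called include these repeats.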
